A study of Rattus norvegicus with 24 samples.

Results

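The mitochondrially encoded respiratory chain genes are represented here by 9 Ensembl gene IDs, chosen as a named list and present in every count table, out of 26404 IDs in each. They are Nd1 (ENSRNOG00000030644), Nd2 (ENSRNOG00000031033), Nd4 (ENSRNOG00000029707), Nd5 (ENSRNOG00000029971), Cytb (ENSRNOG00000031766), Co1 (ENSRNOG00000034234), Co2 (ENSRNOG00000030371), Co3 (ENSRNOG00000030700) and Atp6 (ENSRNOG00000031979). The rule picks them by ID, and the list was drawn up with earlier results of these data known. The names came with the list, since no table used here pairs Ensembl IDs with names. All 9 passed the filter on low counts and were among the 12496 genes tested.

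The RNA came from liver of female rats of the outbred Sprague-Dawley stock, with a labelled age of 57 days. Vehicle rats received sesame oil, and the other groups received TCDD at 10, 3, 1, 0.3, 0.1, 0.03 or 0.01 µg/kg. TCDD is a dioxin that binds and activates the aryl hydrocarbon receptor, a transcription factor. Dosing was by gavage every 4 days, livers were taken on day 28, and each of the 8 groups held 3 libraries from separate rats, described by the series as biological replicates, so p-values measure the spread between these samples. The tissue label could not be checked against marker genes, because the IDs carried no names.

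The mitochondrial genome codes for a small set of hydrophobic core subunits of the respiratory chain, while the other subunits come from nuclear genes. Nd1, Nd2, Nd4 and Nd5 are subunits of complex I, the NADH dehydrogenase. Cytb is the cytochrome b of complex III, Co1, Co2 and Co3 form the catalytic core of cytochrome c oxidase (complex IV), and Atp6 is a membrane subunit of the ATP synthase (complex V). These genes are read from 1 strand as long shared transcripts, which are then cut into single messengers, largely at the transfer RNAs between them. Hepatocytes are rich in mitochondria, and the messengers are abundant in liver.

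Gene counts ranged from 11816273 to 15804887 per library, and the 9 genes together held 907080 to 1490551 of them. Counting error is therefore small beside the spread between rats. As a share of gene counts, the 9 genes took 9.23% ± 1.70 in vehicle (SD, n = 3), with 9.02%, 11.0% and 7.64% in replicates 1, 2 and 3. The share was 7.58% ± 0.282 at 10 µg/kg, with 7.36%, 7.90% and 7.48%. Between these groups the ranges overlapped, since vehicle replicate 3 lay within the range of the highest dose. The 6 groups between had means from 8.31% at 0.3 µg/kg to 9.13% at 0.03 µg/kg. The mean at 10 µg/kg minus that in vehicle was -1.65 percentage points, and -0.753 without vehicle replicate 2. Vehicle replicate 2 held the highest share of all 24 libraries, followed by replicate 2 at 3 µg/kg (10.1%). These 2 libraries and replicate 2 at 0.03 µg/kg also had the 3 lowest TMM scaling factors (0.922, 0.898 and 0.920), which multiply library sizes, so that a low factor gives higher scaled counts (CPM). Results with single libraries left out and with no TMM factor are given below. The part of these 3 factors by themselves was not tested.

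**Figure D1:**
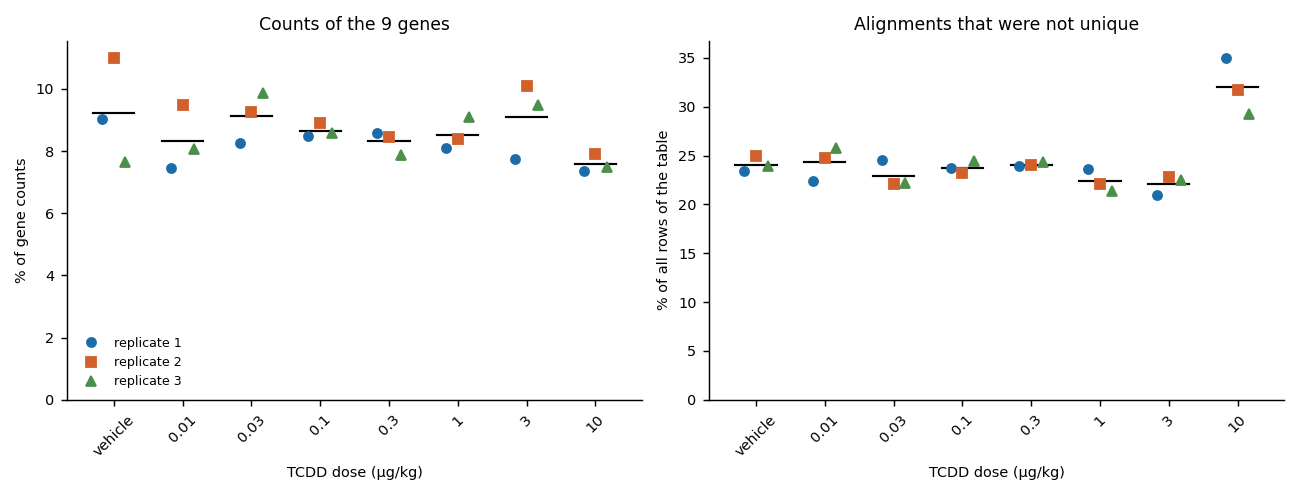
Left, counts of the 9 genes as a percentage of gene counts; right, alignments that were not unique as a percentage of all rows of a count table; both by TCDD dose (µg/kg), with 1 marker per library and bars at the group means. On the left the 3 libraries at 10 µg/kg lie between 7.36% and 7.90%, and the other 21 libraries between 7.47% and 11.0%. The lowest of all is thus at 10 µg/kg, and the ranges overlap. On the right the 3 libraries lie between 29.3% and 35.0%, above the other 21, which reach 25.8% at most.

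Alignments that matched more than 1 place enter no gene count, and their share was higher at the highest dose, as the right panel shows. Nuclear copies of mitochondrial sequence exist in rodents, and reads of the 9 genes that match such a copy equally well would fall among these alignments. How many did so could not be told from the tables, and the part of these reads in the results at 10 µg/kg was not tested. With all rows of the table as the denominator, the 9 genes took 4.21% ± 0.304 at 10 µg/kg and 5.54% ± 0.997 in vehicle (SD, n = 3). In bulk liver, fewer cells of a type and less RNA per cell cannot be told apart.

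Against vehicle, 6 of the 9 genes fell at 10 µg/kg: Atp6, Co2, Co1, Nd1, Nd4 and Nd5. A gene was called at an edgeR adjusted p below 0.05 over all genes tested, and by this rule 13.5% of all tested genes were lower at this dose and 28.2% changed in either direction. The falls were modest, with fitted levels of 0.660 to 0.766 of those in vehicle. By complex, 3 of the 4 complex I genes, 2 of the 3 complex IV genes and Atp6 of complex V were called, and Cytb of complex III was not. Fitted log2 fold changes of all 9 were below 0 (median -0.44), beside a median of -0.02 and 51.1% below 0 over all genes tested. Vehicle replicate 2 had the highest levels of 6 of the 9 genes among all libraries. Without it, none of the 9 was called and 1 had an unadjusted p below 0.05, their median was -0.25, and 20.6% of all tested genes were called. Without replicates 1, 2 and 3 at 10 µg/kg the calls were 1 (Atp6), 2 (Atp6 and Nd5) and 1 (Atp6). In these fits 23.7%, 21.9% and 21.5% of all tested genes were called in either direction. The medians of the 9 genes were -0.42, -0.47 and -0.47.

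Atp6 is part of the proton channel of the ATP synthase, and its change and that of Co2 were the largest of the 9 and nearly equal (-0.60 and -0.59 on the log2 scale). Co2 had the larger value without vehicle replicate 2 or 3 or 10 µg/kg replicate 1. In replicates 1, 2 and 3 Atp6 stood at 11548, 16393 and 10550 CPM in vehicle, and at 7741, 8911 and 8767 CPM at 10 µg/kg. Its libraries held 11611, 15199 and 12662 CPM at 3 µg/kg, 11836, 12233 and 12998 CPM at 1 µg/kg, and 10684, 11825 and 11056 CPM at 0.3 µg/kg. The remaining groups held 12189, 12745 and 11281 CPM at 0.1 µg/kg, 10066, 13192 and 12388 CPM at 0.03 µg/kg, and 11193, 13696 and 10686 CPM at 0.01 µg/kg. Each library at 10 µg/kg lay below each of the other 21. The mean was 12830 ± 3125 CPM in vehicle and 8473 ± 638 CPM at 10 µg/kg (SD, n = 3). The log2 fold change was -0.60 ± 0.161 SE (adjusted p = 0.0083 in edgeR). Atp6 stayed called in 12 of the 14 other settings (adjusted p 0.00121 to 0.0900). It was lost without vehicle replicate 2 (log2 fold change -0.38, edgeR adjusted p = 0.0900) and when vehicle and 10 µg/kg were fitted by themselves. The other called genes held in fewer settings, Co1 in 8 of the 14 and Co2, Nd1, Nd4 and Nd5 in 7 each. In the mitochondrial genome Atp6 overlaps Atp8, and how reads over the overlap were assigned is not given in the sources used here, though reads marked as falling on more than 1 gene were 955 to 1505 per library over all genes.

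Co1, the catalytic subunit of cytochrome c oxidase, took 2.54% to 3.65% of a library's gene counts. It stood at 32100, 39639 and 28109 CPM in vehicle replicates 1, 2 and 3, and at 23076, 23494 and 23418 CPM at 10 µg/kg. The values were 26573, 39988 and 32123 CPM at 3 µg/kg, 30057, 30285 and 31235 CPM at 1 µg/kg, and 32906, 28915 and 25322 CPM at 0.3 µg/kg. At the lowest doses they were 29106, 32063 and 27811 CPM (0.1 µg/kg), 27042, 36819 and 33616 (0.03 µg/kg), and 26836, 33521 and 26995 (0.01 µg/kg). The 3 libraries at 10 µg/kg were close together and below all 21 others. The mean fell from 33283 ± 5855 to 23329 ± 223 CPM (SD, n = 3; log2 change -0.51 ± 0.166 SE, adjusted p = 0.0256 in edgeR). Without vehicle replicate 2 the log2 fold change was -0.36 (edgeR adjusted p = 0.159, against a range of 0.00854 to 0.159 over the alternatives).

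Co2 binds the copper centre that takes electrons from cytochrome c. Its vehicle libraries held 7987, 9174 and 5458 CPM, and those at 10 µg/kg 5293, 4614 and 5070 CPM. It stood at 6117, 7271 and 5547 CPM at 3 µg/kg, at 6557, 6923 and 6532 CPM at 1 µg/kg, and at 8193, 7101 and 4771 CPM at 0.3 µg/kg. The lower groups held 7143, 6363 and 5899 CPM at 0.1 µg/kg, 5868, 7683 and 7588 CPM at 0.03 µg/kg, and 5738, 8066 and 5649 CPM at 0.01 µg/kg. At 10 µg/kg all libraries lay below all vehicle libraries, but vehicle replicate 3 was only just above them, and replicate 3 at 0.3 µg/kg lay among them. The fall from 7540 ± 1898 to 4992 ± 346 CPM (SD, n = 3) had a log2 fold change of -0.59 (SE 0.203, edgeR adjusted p = 0.0332). Leaving out vehicle replicate 2 gave Co2 a log2 fold change of -0.42 (edgeR adjusted p = 0.188). Co2 had the largest spread within groups of the 9, with a pooled SD of 0.254 on the log2 scale.

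Co3, the other core subunit of complex IV, ranged from 8747 to 15825 CPM in vehicle and from 8530 to 9987 CPM at 10 µg/kg. These ranges overlapped, and the call was missed (log2 change -0.39 ± 0.187 SE, adjusted p = 0.124 in edgeR). Without vehicle replicate 3 it was called (-0.57, edgeR adjusted p = 0.0276), and without vehicle replicate 2 it stood at -0.13. Over the 6 doses between, its libraries ranged from 9004 CPM at 0.3 µg/kg to 14374 CPM at 3 µg/kg.

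Among the complex I genes, Nd1 forms part of the site where ubiquinone binds. It stood at 5627, 8545 and 5231 CPM in vehicle and at 4215, 4787 and 4681 CPM at 10 µg/kg. Its other high-dose values were 5150, 7549 and 6394 CPM at 3 µg/kg, 5284, 5165 and 6227 CPM at 1 µg/kg, and 4765, 5368 and 4669 CPM at 0.3 µg/kg. At 0.1 µg/kg it held 5525, 6151 and 5916 CPM, at 0.03 µg/kg 5153, 6216 and 6306, and at 0.01 µg/kg 5288, 6123 and 5020. Libraries of the highest dose lay below those of vehicle, and overlapped with those at 0.3 µg/kg. The mean was 6468 ± 1810 CPM in vehicle and 4561 ± 304 CPM at 10 µg/kg (SD, n = 3; log2 change -0.50 ± 0.171 SE, adjusted p = 0.0323 in edgeR). Without vehicle replicate 2 the log2 fold change was -0.24. At 0.3 µg/kg Nd1 was the 1 member with an unadjusted p below 0.05 (log2 change -0.39 ± 0.171 SE, adjusted p = 0.275 in edgeR). Such a p was found for 15% of all genes tested.

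Nd4 is one of the proton-pumping subunits of the membrane arm of complex I. The vehicle libraries held 6941, 8639 and 6440 CPM, and the libraries at 10 µg/kg 5258, 5309 and 5633 CPM. At 3 µg/kg the values were 6565, 9989 and 7446 CPM, at 1 µg/kg 6404, 6107 and 7151, and at 0.3 µg/kg 5898, 6897 and 6275. Below these doses they were 7107, 7567 and 7132 CPM at 0.1 µg/kg, 6217, 7665 and 7117 CPM at 0.03 µg/kg, and 6486, 6865 and 5693 CPM at 0.01 µg/kg. As for Atp6 and Co1, each library at 10 µg/kg lay below the 21 others, though replicate 3 at 0.01 µg/kg was close. The mean fell from 7340 ± 1153 to 5400 ± 203 CPM (SD, n = 3; log2 change -0.44 ± 0.151 SE, adjusted p = 0.0323 in edgeR). Leaving out vehicle replicate 2 gave Nd4 a log2 fold change of -0.30 (edgeR adjusted p = 0.191). Nd4 overlaps Nd4l in the mitochondrial genome, and the assignment of reads there is likewise not given in the sources used here.

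Nd5, another proton-pumping subunit of complex I, had the smallest spread within groups of the 9, with a pooled SD of 0.146 on the log2 scale. Its vehicle libraries stood at 3343, 3899 and 2726 CPM, and those at 10 µg/kg at 2528, 2760 and 2348 CPM. They stood at 3629, 3681 and 3963 CPM at 3 µg/kg, 2599, 3240 and 3206 CPM at 1 µg/kg, and 2834, 2560 and 3058 CPM at 0.3 µg/kg. The lowest 3 doses gave 3334, 3194 and 3339 CPM (0.1 µg/kg), 2823, 3464 and 3313 (0.03 µg/kg), and 3109, 3044 and 2732 (0.01 µg/kg). Against vehicle the ranges met, since vehicle replicate 3 lay below replicate 2 at 10 µg/kg. The mean was 3323 ± 587 CPM in vehicle and 2545 ± 207 CPM at 10 µg/kg (SD, n = 3; log2 change -0.38 ± 0.136 SE, adjusted p = 0.0399 in edgeR). Without vehicle replicate 2 the log2 change was -0.25.

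Nd2, the last of the complex I genes, ranged from 4137 to 7465 CPM in vehicle and from 3862 to 4433 CPM at 10 µg/kg. Vehicle replicate 2 alone set the upper end, since the other vehicle libraries lay at 4137 and 4336 CPM, within the range of the highest dose. This did not pass the test (log2 change -0.39 ± 0.188 SE, adjusted p = 0.130 in edgeR). Without vehicle replicate 2 the log2 fold change was -0.05 (edgeR adjusted p = 0.853), and without vehicle replicate 3 it was -0.54 (edgeR adjusted p = 0.0462).

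Cytb, which carries electrons within complex III, showed the smallest difference. It held 7673, 9974 and 5387 CPM in vehicle and 5837, 8046 and 6660 CPM at 10 µg/kg. It stood at 6852, 7915 and 7255 CPM at 3 µg/kg, at 7040, 7334 and 8137 CPM at 1 µg/kg, and at 7046, 6939 and 6230 CPM at 0.3 µg/kg. The other groups held 7516, 6858 and 6522 CPM at 0.1 µg/kg, 6280, 8553 and 7619 CPM at 0.03 µg/kg, and 6544, 7810 and 5930 CPM at 0.01 µg/kg. Its lowest library was vehicle replicate 3, whereas the lowest library of each of the other 8 genes was at 10 µg/kg. The log2 fold change was -0.17 (SE 0.182, 95% interval -0.54 to 0.21, edgeR adjusted p = 0.538), so that a fall as large as that fitted for Nd1 lies within the interval. Its direction turned without vehicle replicate 2 (0.075), and the value was -0.37 without vehicle replicate 3. With no scaling factor it was 0.018, where the median of all genes tested stood at 0.16 in place of -0.02.

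**Figure D2:**
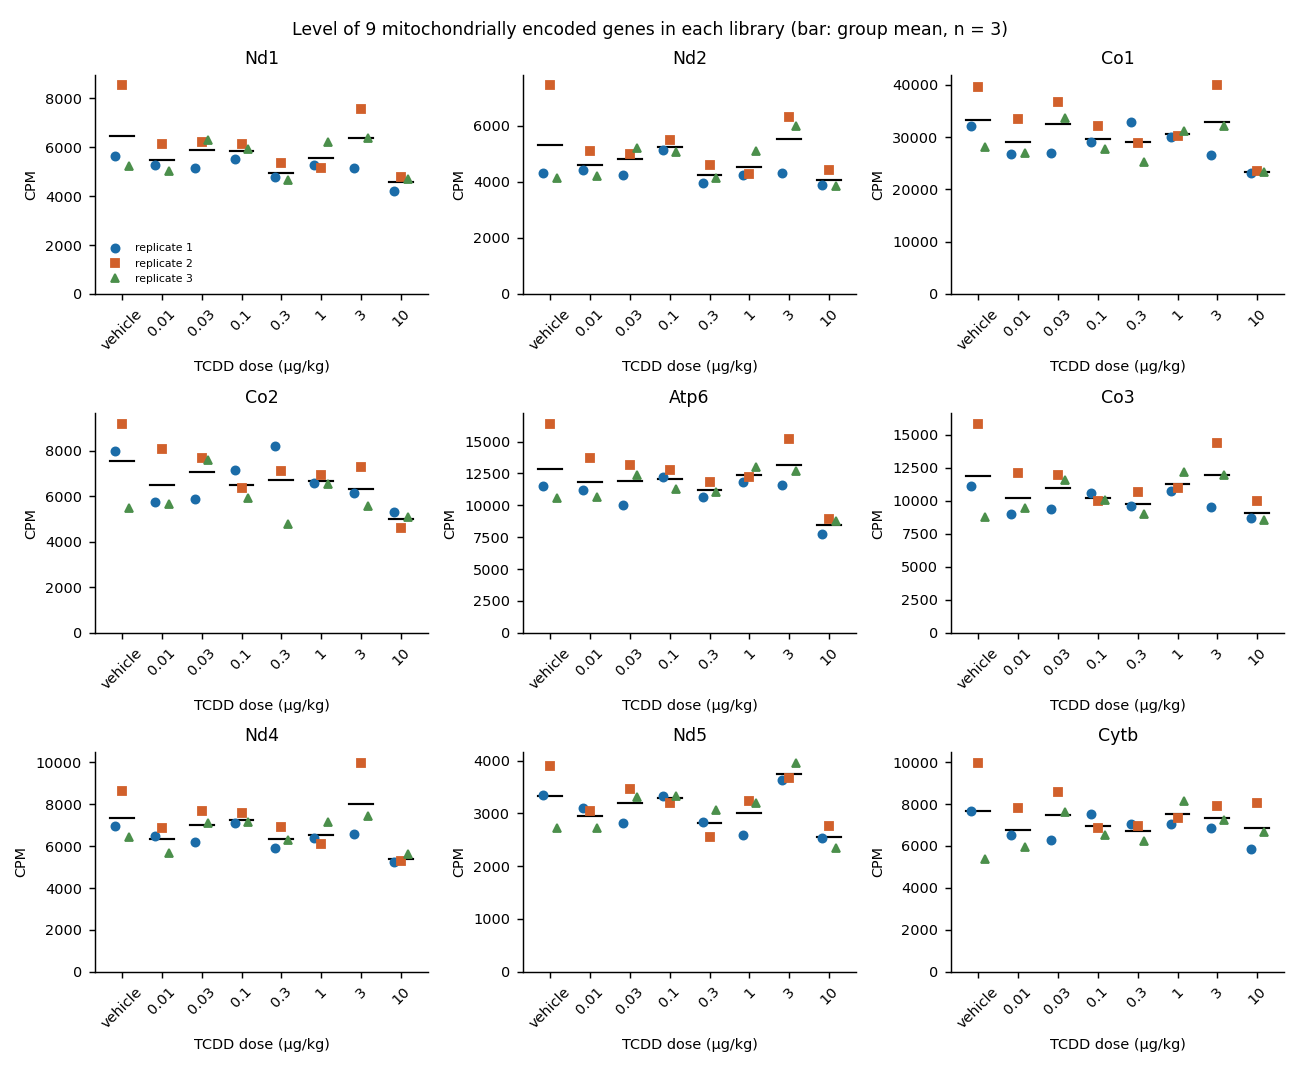
Level of each gene in CPM by TCDD dose (µg/kg), with 1 marker per library, its shape and colour giving the replicate number, and bars at the group means (n = 3). At 10 µg/kg Co1, Atp6 and Nd4 lie below all 21 other libraries, and replicate 2 is the highest vehicle library for all genes shown.

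At 10 µg/kg, 5 of the 9 genes (Nd1, Co1, Co2, Atp6 and Nd4) had all 3 libraries below all 3 vehicle libraries, which held for 21.3% of all genes tested. Below all 21 other libraries lay 3 of the 9, against 4.47% of all genes tested. In the order of group means, the 10 µg/kg group was lowest for 8 of the 9 genes, and for Cytb it came 6th from the top. This order was taken for the 9 genes alone, so no share over all genes stands beside it. Vehicle had the highest mean for 4 genes and 3 µg/kg for 5. Ranges of neighbours in that order overlapped throughout for 5 genes. For Co1, Co2, Atp6 and Nd4 the single gap lay between the lowest group, at 10 µg/kg, and the one above it.

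Below 10 µg/kg, none of the 9 genes was called against vehicle at any of the 6 doses. Over all genes tested, 0.008% were called at 0.01 µg/kg, 0.016% at 0.03, 0.92% at 0.1, 2.06% at 0.3, 2.11% at 1 and 13.3% at 3 µg/kg. Lower than vehicle were 0% of all genes at the lowest 2 doses, 0.048% at 0.1, 0.144% at 0.3, 0.416% at 1 and 5.32% at 3 µg/kg. Unadjusted p-values below 0.05 were found in edgeR for 1 of the 9 at 0.3 µg/kg, beside 15% of all genes tested. At the other 5 doses they were found for 0 of the 9, beside 7.46% to 27% of all genes. DESeq2 likewise called 0 of the 9 at each of the 6 doses, where it called 0.12% to 15.5% of all genes. The median log2 fold change of the 9 genes was -0.21 at 0.01, -0.10 at 0.03, -0.14 at 0.1, -0.21 at 0.3 and -0.14 at 1 µg/kg. The 3 µg/kg group gave 0.00, where 4 of the 9 had a value below 0. These comparisons share the 3 vehicle libraries. Without vehicle replicate 2 the medians at the same 5 doses, from 0.01 to 1 µg/kg, were 0.007, 0.11, 0.131, -0.016 and 0.032. Of these, the median at 0.3 µg/kg alone stayed below 0, and it lay near 0. Without vehicle replicate 3 the 5 medians were -0.361, -0.237, -0.272, -0.362 and -0.259.

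At 3 µg/kg the median also moved with single vehicle libraries, to 0.259 without replicate 2 (2 genes with an unadjusted p below 0.05, none called in edgeR) and to -0.125 without replicate 3. Nd5 had the highest value there, with a log2 fold change of 0.18 (95% interval -0.11 to 0.46, edgeR adjusted p = 0.432), and Co2 the lowest, with -0.26 (95% interval -0.68 to 0.17, edgeR adjusted p = 0.448). Differences of a size like those at 10 µg/kg were thus not excluded for Co2 at this dose. At 0.01 µg/kg the 95% interval held the value fitted at 10 µg/kg for each gene but Atp6 (-0.45 to 0.22), as for Co1 (-0.54 to 0.15). At 0.3 µg/kg that of Nd1 reached from -0.75 to -0.03. The lack of calls below 10 µg/kg thus does not by itself exclude such falls.

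**Figure D3:**
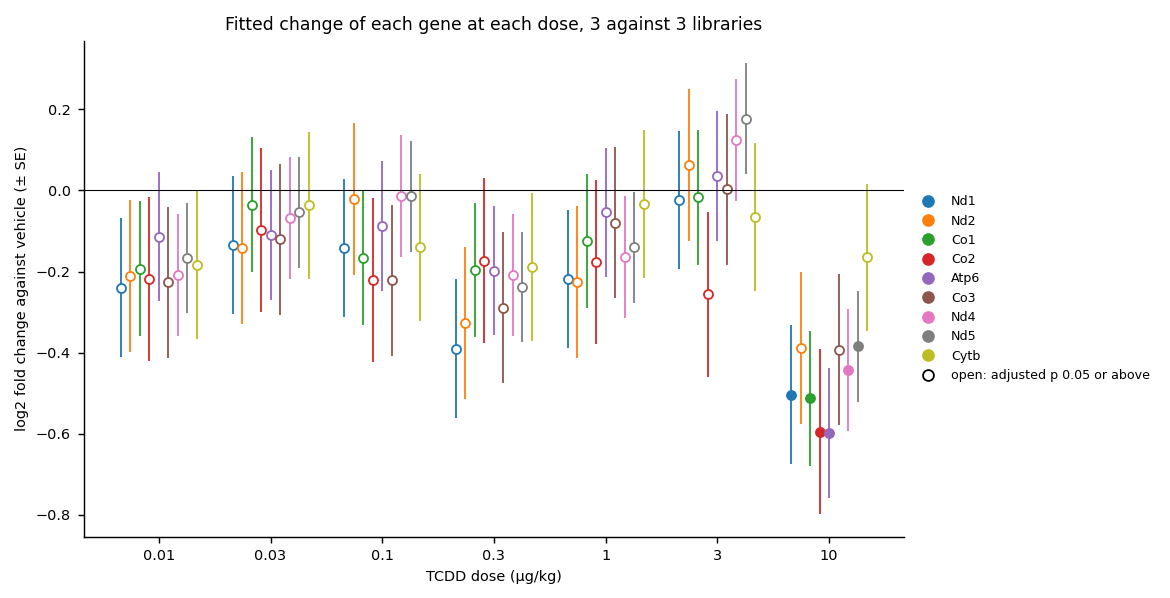
Log2 fold change against vehicle (± SE) of each gene at each TCDD dose (µg/kg), from the fit to all 24 libraries; filled points have an edgeR adjusted p below 0.05. Filled points occur at 10 µg/kg alone, for 6 of the 9 genes, and the values at 3 µg/kg lie on both sides of 0.

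Between the highest doses, 3 of the 9 genes were lower at 10 than at 3 µg/kg, where 2.83% of all tested genes were lower and 5.29% changed in either direction. Nd5 had a log2 fold change of -0.56 (SE 0.137, edgeR adjusted p = 0.0208), Atp6 of -0.63 (SE 0.161, edgeR adjusted p = 0.0255) and Nd4 of -0.57 (SE 0.151, edgeR adjusted p = 0.0321). These calls do not use the vehicle libraries for their means. Nd5 fell from 3758 ± 179 to 2545 ± 207 CPM (SD, n = 3), and its ranges did not overlap (3629 to 3963 against 2348 to 2760 CPM). For 6 of the 9 genes (Nd1, Co1, Co2, Atp6, Nd4 and Nd5) all libraries at 10 µg/kg lay below all those at 3 µg/kg, against 13.3% of all genes tested. Cytb had a log2 fold change of -0.10 (SE 0.182, edgeR adjusted p = 0.806). Without replicate 2 at 3 µg/kg, or without replicate 1 or 2 at 10 µg/kg, Nd5 was the 1 gene of the 9 called. Without replicate 3 at 10 µg/kg none was. Of all genes tested, 2.68%, 5.95%, 1.89% and 1.6% were called in these fits, in that order.

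Over all groups at once, none of the 9 genes was called for a difference among doses, with edgeR adjusted p from 0.0816 (Nd5) to 0.943 (Cytb), while 21% of all tested genes were called. Unadjusted p-values below 0.05 were found in edgeR for 3 of the 9, beside 33.7% of all genes tested. DESeq2 called 3 (Atp6, Nd4 and Nd5), beside 29.4% of all genes tested. Nor was any called for a trend on the rank of the dose, for which 33.6% of all tested genes were called, 15.8% with a falling slope. Co2 came nearest, with a slope of -0.05 on the log2 scale per dose rank (edgeR adjusted p = 0.0673). DESeq2 called that 1 slope of the 9, beside 34.8% of all tested genes. It was also the 1 with an unadjusted p below 0.05 in edgeR, beside 43.1% of all genes tested. Without vehicle replicate 3, edgeR called Nd5 for any dose (20.3% of all tested genes) and Co2 for the trend (34.3%). Co2 was also called for the trend without 0.01 µg/kg replicate 1 (31.6%) or 3 (32.4%) or 3 µg/kg replicate 2 (33.8%).

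The genes moved together within groups. In 9 of the 24 libraries all 9 genes lay on 1 side of their group means, above in 4 and below in 5. Vehicle replicate 2 had a median deviation of 0.38 on the log2 scale, with all 9 above, and vehicle replicate 3 one of -0.27, with all 9 below. The pooled SD within groups was 0.20 on the log2 scale at the median of the 9 genes, beside 0.29 at the median of all genes tested. The gap between vehicle replicates 2 and 3 thus exceeded the median fitted fall at 10 µg/kg. Over the 36 pairs of genes, the deviations from group means correlated across the 24 libraries with r from 0.329 (Nd5 and Co2) to 0.961 (Nd1 and Nd2), with a median of 0.78. The points share the libraries and their scaling, and r is given as a description.

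Among the 8336 other genes whose mean reached 5 CPM, the IDs most like the mean log2 CPM of the 9 genes over the 24 libraries were ENSRNOG00000038372 (r = 0.808) and ENSRNOG00000014272 (r = 0.802). The first averaged 128 ± 16.2 CPM in vehicle and 100 ± 8.04 CPM at 10 µg/kg (SD, n = 3, log2 change -0.35 ± 0.123 SE). The second averaged 72.5 ± 12.2 and 54.1 ± 0.063 CPM (SD, n = 3, log2 change -0.42 ± 0.187 SE). Both IDs were picked by r over all 24 libraries, vehicle and 10 µg/kg among them. Their changes at that dose are therefore bound up with the choice, and are given as a description with no p. For the 9 genes themselves, r with their own mean ran from 0.768 (Co2) to 0.956 (Nd1).

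The proportions among the 9 genes need no scaling of the libraries. They were chosen for testing after the levels had been seen, where Atp6 had the largest and Cytb the smallest change at 10 µg/kg. The p-values below are therefore bound up with levels in the same libraries. For Cytb and Atp6 the proportions differed between 10 µg/kg and the other 21 libraries, which pool vehicle and the lower doses. The permutation test takes these 21 as exchangeable, and the comparison with vehicle alone is given below. Cytb made up 8.77%, 11.1% and 9.66% of the 9 genes' counts in replicates 1, 2 and 3 at 10 µg/kg, and 7.02% to 8.78% in the other 21 libraries. The mean was 9.85% ± 1.19 (SD, n = 3) against 8.11% ± 0.468 (SD, n = 21), with an exact two-sided permutation p of 0.000988 and a Benjamini-Hochberg value of 0.00445 over the 9 genes. Atp6 went the other way, with 11.6%, 12.3% and 12.7% at 10 µg/kg and 12.4% to 14.8% elsewhere. Its mean was 12.2% ± 0.544 (SD, n = 3) against 13.7% ± 0.583 (SD, n = 21), with the same exact permutation p of 0.000988 and adjusted value of 0.00445. The 2 highest shares of Cytb were thus at the highest dose, and the third of its libraries met the top of the other range.

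Co3 made up 13.1% ± 0.719 at 10 µg/kg and 12.2% ± 0.599 in the other libraries (exact permutation p = 0.0311, adjusted 0.0934), and the adjusted value of the exact permutation test was 0.196, 0.783 and 0.0474 without replicates 1, 2 and 3 of that dose. Without replicate 2 its difference was 0.516 percentage points in place of 0.877. The remaining 6 genes had exact permutation p-values from 0.157 (Co1) to 0.857 (Nd4). Against the 3 vehicle libraries alone, the p for Cytb and for Atp6 was 0.10 in the exact permutation test, the smallest that 3 against 3 allows. Shares that sum to a whole are bound to each other, so they show unequal change and not which gene changed. Without replicate 2 at 10 µg/kg the difference for Cytb was 1.10 percentage points in place of 1.74, and the adjusted value of the exact permutation test was 0.0534 for both genes. These proportions were chosen for testing after the levels had been seen.

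**Figure D4:**
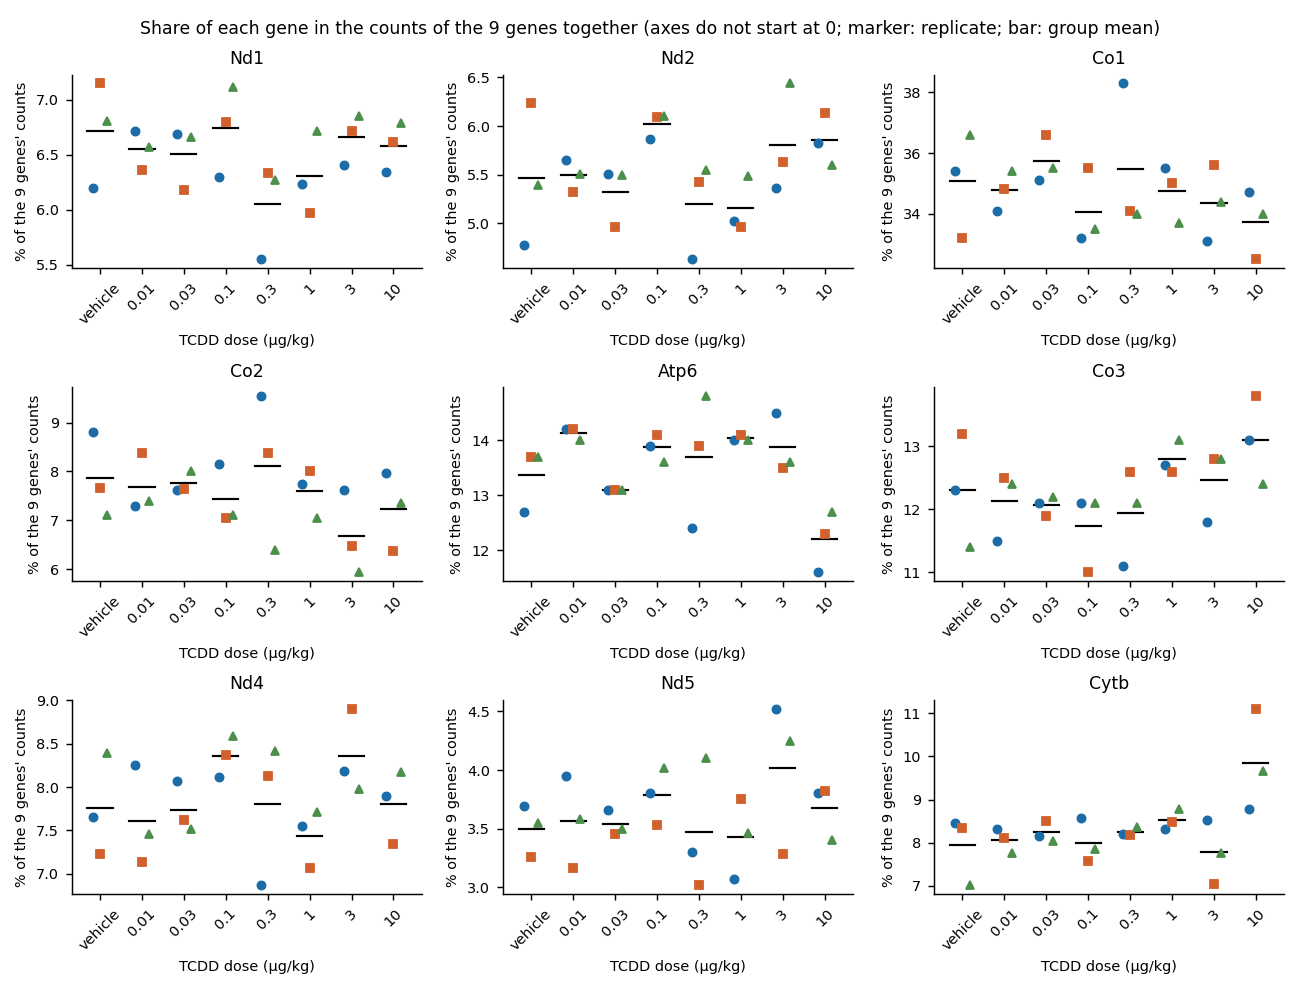
Share of each gene in the counts of the 9 genes together (%), by TCDD dose (µg/kg), with 1 marker per library and bars at group means; the vertical axes do not start at 0. At 10 µg/kg Cytb lies between 8.77% and 11.1% and Atp6 between 11.6% and 12.7%.

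The 6 calls at 10 µg/kg were the same with RLE scaling, with DESeq2 and with library sizes computed without the 9 genes, and 5 of them were lost with no scaling factor. The TMM factors, which set library sizes so that most genes do not move, reached 1.11 at 10 µg/kg, where all 3 exceeded those of the other 21 libraries (0.898 to 1.07). With total gene counts alone, Atp6 was the 1 gene of the 9 called, beside 27.8% of all tested genes. The median of all genes tested moved from -0.02 to 0.16 on the log2 scale, and that of the 9 genes from -0.44 to -0.26. Relative to the median of all genes, the 9 genes stood at -0.43 with TMM factors and at -0.42 without.

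**Figure D5:**
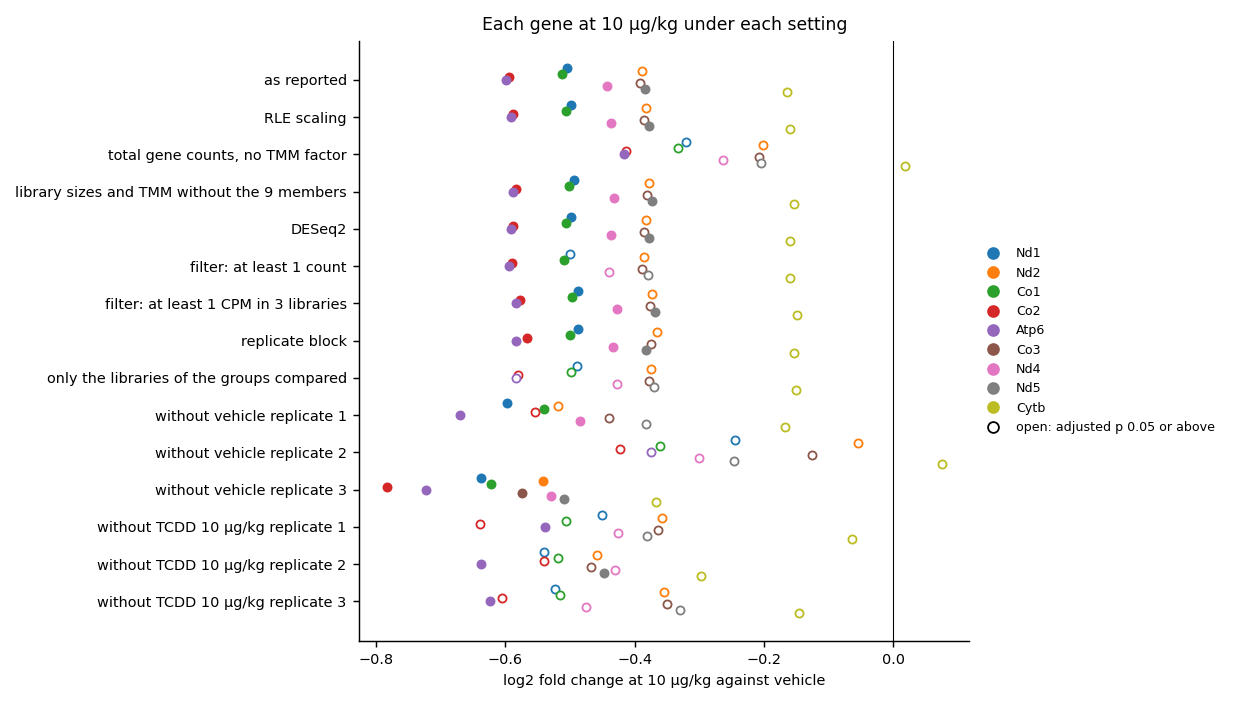
Log2 fold change of each gene at 10 µg/kg against vehicle under each setting; filled points have an adjusted p below 0.05. Without vehicle replicate 2 no point is filled and the values run from -0.42 (Co2) to 0.075 (Cytb).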

How the data were processed

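The authors deposited 1 table of read counts per library, with whole-number counts for 26404 Ensembl gene IDs and 5 summary rows that name no gene. These rows held 35.8% to 47.5% of a table and stayed out of library sizes and tests. Per the submitters' processing notes the tools included HTSeq 0.6.1 and TopHat 1.4.1, besides cutadapt 1.4.1, FastQC 0.11.2, DESeq and SAMtools 0.1.2; their order and settings, the genome build, the annotation and the strand setting are not given in the sources used here. Groups and replicate numbers came from the labels.

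The deposited counts entered edgeR 4.0.16 (R 4.3.3): filterByExpr (12496 genes kept), TMM scaling and a quasi-likelihood fit to all 24 libraries with a mean per group. Doses were tested against vehicle, 10 against 3 µg/kg, any dose by the F test, and a slope on dose rank. P-values were adjusted by Benjamini-Hochberg over all genes tested, with a call below 0.05. The standard error is the size of a log2 fold change over the square root of F, and 95% intervals use 20.5 degrees of freedom. The script was tested on simulated data. Alternatives were RLE scaling, no scaling factor, sizes without the 9 genes, DESeq2 1.42.0, 2 other filters, a replicate block, fits of the 2 groups alone, another dose scale and leaving out libraries in turn.

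Replicate pairs differed by more than sampling noise (chi-square 13.0 to 54.3 per degree of freedom). The genes, lists and tests were chosen with earlier results of these data known. The rule for named genes was to account for all 9, to give every library's value for the largest and the smallest change at 10 µg/kg and for each called gene, and to name the 2 IDs most like them. Levels per coding length, sequences, cell type markers and 10 lists of other genes by symbol could not be used, since 0 of the 26404 IDs matched a name in the RefSeq gene table (assembly GRCr8), which was not used otherwise. CPM are counts scaled by TMM-adjusted library size, not divided by length, so levels are not compared between genes.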

Additional observations from a re-analysis of the deposited data

Results flagged for a closer look

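Alignments matching more than 1 place, which enter no gene's count and are used here only within the total of all rows, averaged a share of 32.0% ± 2.85 at 10 µg/kg and 24.1% ± 0.797 in vehicle (SD, n = 3), a signal above the control samples outside the main measurement. Its part in the falls of the 9 genes at that dose was not tested.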

How the results depend on the processing

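At 10 µg/kg against vehicle 6 genes were called. This count was 6 under RLE scaling, sizes without the 9 genes, DESeq2, a filter of 1 CPM in 3 libraries and the replicate block. In these settings 28.2% to 30.2% of all tested genes were called in either direction. It was 1 with no TMM factor, where 27.8% of all tested genes were called. The count was 3 (17.8% of all) when every gene with at least 1 count was kept (18198 genes tested). With just those 2 groups fitted it was 0 (23.8% of all). The median log2 fold change of the 9 genes was -0.439 and -0.428 in the last 2 settings, beside -0.443. Leaving out a library gave 0 (vehicle replicate 2, 20.6% of all tested genes) to 8 (vehicle replicate 3, 26.7%). It gave 1, 2 and 1 without replicates 1, 2 and 3 at 10 µg/kg (23.7%, 21.9% and 21.5%). At 10 against 3 µg/kg the 3 calls became 0 with no TMM factor (6.23% of all tested genes). They became 0 with just those 2 groups fitted (2.31%, median -0.465, beside -0.481). With a library left out they became 0 to 3, where 1.6% to 5.95% of all tested genes were called. For any dose the 0 calls became 3 in DESeq2 (29.4% of all tested genes) and 1 with the replicate block (Atp6, 24.3%). They became 0 to 1 with a library left out (Nd5 without vehicle replicate 3, 20.3%). For the trend they became 1 in DESeq2 (34.8% of all tested genes). With a library left out they became 0 to 1 (Co2 without vehicle replicate 3, 0.01 µg/kg replicate 1 or 3, or 3 µg/kg replicate 2). The shares of all tested genes in those fits are given above. Leaving out a library gave 0 calls at each lower dose. The cause was not tested. The 9 genes' share of gene counts differed by -1.65 percentage points between 10 µg/kg and vehicle, and by -2.44 to -0.753 with a library left out, the smallest without vehicle replicate 2.

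Directions turned for values near 0 that had missed the threshold. Cytb at 10 µg/kg against vehicle was 0.018 with no TMM factor and, with a library left out, -0.367 to 0.075 (without vehicle replicate 2); at 10 against 3 µg/kg it was 0.092 with no TMM factor and -0.233 to 0.001 with a library left out. Slopes turned without vehicle replicate 2 for Nd2 (range with a library left out -0.031 to 0.004), Co3 (-0.028 to 0.005) and Cytb (-0.019 to 0.012), and for Cytb also with no TMM factor (0.003) and without 10 µg/kg replicate 1 (0.000). Among the proportions, Nd1 was -0.141 against the vehicle libraries alone and -0.0295 to 0.196 with a library of 10 µg/kg left out. Leaving out such a library gave -0.723 to 0.0665 for Co2, -0.244 to 0.171 for Nd4 (0.048 against vehicle) and -0.0113 to 0.194 for Nd5. These proportions and their alternatives were chosen after seeing the data.

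Of the 84 pairs of same-numbered libraries in different groups, 42 had deviations correlated over 0.1, with a median r of 0.0985, beside -0.0571 over the 168 pairs of other numbers. In 15 of the 24 libraries the mean correlation was highest with their own number, a hint of pairing from the data. Deviations within a group cancel out, so these medians are bound to each other. Pairing was taken to need r over 0.1 in each pair or a statement in the labels, and neither was met. To ask this of all 84 pairs is strict, and missing it does not show that the libraries are unpaired. With the replicate block no call changed other than the 1 named above for any dose. Depth does not limit these genes, whose lowest count in a library was 30147.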
